A study of Mus musculus with 6 samples.

Results

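The regions described here were 211 p53 ChIP-seq peaks of unirradiated mouse splenic non-B cells that were missing from the peak list of unirradiated B cells. They were selected on the peak lists themselves, as the non-B cells mock peaks that shared at least 1 bp with a non-B cells IR peak and none with a B cells mock peak. Of the 712 non-B cells mock peaks, 211 (29.6%) met this rule, out of 48115 peaks in the 5 lists of the series. A further 478 of the 712 did share sequence with the B cells mock list, and 436 of these, which also had a non-B cells IR peak, are called shared basal peaks below. Another 23 peaks were missing from both of the other lists used by the rule. The mirror set, B cells mock peaks with a B cells IR peak and no non-B cells mock peak, held 861 peaks and is called the B cells only basal peaks.

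All wild-type samples came from Trp53+/+ C57/Bl6 mice of 8 weeks, and the fifth list from total spleen of irradiated Trp53-/- mice of the same strain, whose age the labels do not give. Mice were mock treated or examined 4 h after whole-body irradiation with 7 Gy (IR). B cells were those retained by beads against B220, a surface form of CD45 carried by B cells, and non-B cells were the flow-through, a mixture of T cells and other splenic cells. Chromatin was pooled across animals and precipitated with the p53 antibody CM5p, and each group had 1 library. No difference between groups could therefore be tested, the lists give no depth, and the 95% intervals below (Wilson for shares, order statistics for medians) cover counting error or the spread of peaks alone. In such pooled cells, binding in few cells and weak binding in many cannot be told apart. The lists hold no marker expression, so the purity of the compartments was not checked here.

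p53 is a transcription factor that is kept scarce in unstressed cells by Mdm2 and accumulates after DNA damage. It binds as a tetramer to a response element made of a pair of decamers, and activates genes of cell cycle arrest, apoptosis and its own restraint. Each decamer has an invariant C and G as the first and last bases of a core that is most often CATG. Basal binding is what remains on chromatin without added damage, and each value below is the number listed with a peak. No source used here names its unit. It was read from the values as the −log10 p-value of the peak caller, and it can be ranked within a list and not compared between lists.

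The sequences below are p53 elements of members, shown because some of them were carried by more than 1 member. Others, such as those of Ccng1 and Nrbf2, were each carried by 1 member, and their copies elsewhere in mm9 were not counted. Each sequence is the plus strand of mm9, 5′ to 3′, with the cores of both decamers in capitals. The first 8 are all the elements that matched at every position, and the last 4 are from the 16 with 1 mismatch, of which that near Gpd1l was added because its element was the most frequent one.
chr15:36319727-36319746, upstream of Rpl7a-ps3: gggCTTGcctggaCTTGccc
chr16:76643641-76643660, upstream of Gm9843: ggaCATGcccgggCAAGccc
chr17:6405083-6405102, upstream of Dynlt1b: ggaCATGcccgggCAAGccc
chr13:56297732-56297751, upstream of Tifab: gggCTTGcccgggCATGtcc
chr11:109755849-109755868, upstream of 1700012B07Rik: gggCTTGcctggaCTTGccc
chr13:49701367-49701386, upstream of Ogn: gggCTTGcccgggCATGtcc
chr9:11380817-11380836, upstream of Cntn5: gggCATGcccgggCTTGttt
chr5:58181006-58181025, downstream of the start of Pcdh7: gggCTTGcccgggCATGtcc
chr11:40568438-40568457, downstream of the start of Ccng1: agaCTAGcccgggCTTGcgt
chr8:122111157-122111176, downstream of the start of Lrrc50: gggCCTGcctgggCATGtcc
chr10:66762147-66762166, upstream of Nrbf2: gaaCATGtccagaCATGtat
chr9:114851957-114851976, upstream of Gpd1l: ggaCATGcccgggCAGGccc

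The whole member with the highest non-B cells mock value is given next, with its element in capitals, since it is the clearest member far from any B cells mock peak. It spans 213 bp between genes at chr15:36319610-36319822, 80994 bp upstream of the start of Rpl7a-ps3.
Member upstream of Rpl7a-ps3: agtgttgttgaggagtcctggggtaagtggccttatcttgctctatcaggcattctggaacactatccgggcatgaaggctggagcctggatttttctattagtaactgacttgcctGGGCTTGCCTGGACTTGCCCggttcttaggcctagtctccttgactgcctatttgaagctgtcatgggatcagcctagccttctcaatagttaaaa

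The members were weak basal peaks over sites that ranked high after irradiation. Their non-B cells mock values had a median of 8.22 and ran from 5.08 to 22.47, against a median of 13.07 and a highest value of 164.78 for the shared basal peaks. The median width was 75 bp, against 127 bp for the shared basal peaks. The non-B cells IR peaks over the members had a median value of 38.26, with a range from 9.27 to 523.34. Their median percentile in the 21400 peaks of that list was 80.2 (interval 76.8 to 84.1), and 108 of 211 lay in its highest quintile. The shared basal peaks had a median percentile of 98.3. These lists chose the members, so the values are a description.

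The members at the top of the mock list were of unlike kinds. The member upstream of Rpl7a-ps3 had a non-B cells mock value of 22.47, a non-B cells IR value of 506.67 and a B cells IR value of 274.92, so it was near the top of both IR lists. A pair of members in a coding exon of Mycn, a proto-oncogene of the Myc family, had mock values of 18.44 and 17.89 over 1 non-B cells IR peak of 11.25, and neither had a B cells IR peak. A pair in an intron of Bbx, a gene for an HMG-box protein, had mock values of 16.22 and 15.76 over a non-B cells IR peak of 11.8, again without a B cells IR peak. Both IR peaks were low in their list, at percentiles 20.1 and 21.4.

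Of the rest of the 10 highest, 4 carried an unsplit element and lay in the highest quintile of the non-B cells IR list. The member upstream of Gm9843 had a mock value of 17.89, a non-B cells IR value of 61.57 and a B cells IR value of 33.9. The member in an intron of Trerf1 had values of 16.41, 175.68 and 55.65 in that order, and the one upstream of Dynlt1b had 16.22, 96.97 and 73.34. The member upstream of Tifab had 13.54, 308.38 and 119.72. The remaining one, 64900 bp upstream of Cr2, the gene of a complement receptor of B cells, had a mock value of 14.88, a non-B cells IR value of 24.89 and a B cells IR value of 12, and held no element.

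**Figure D1:**
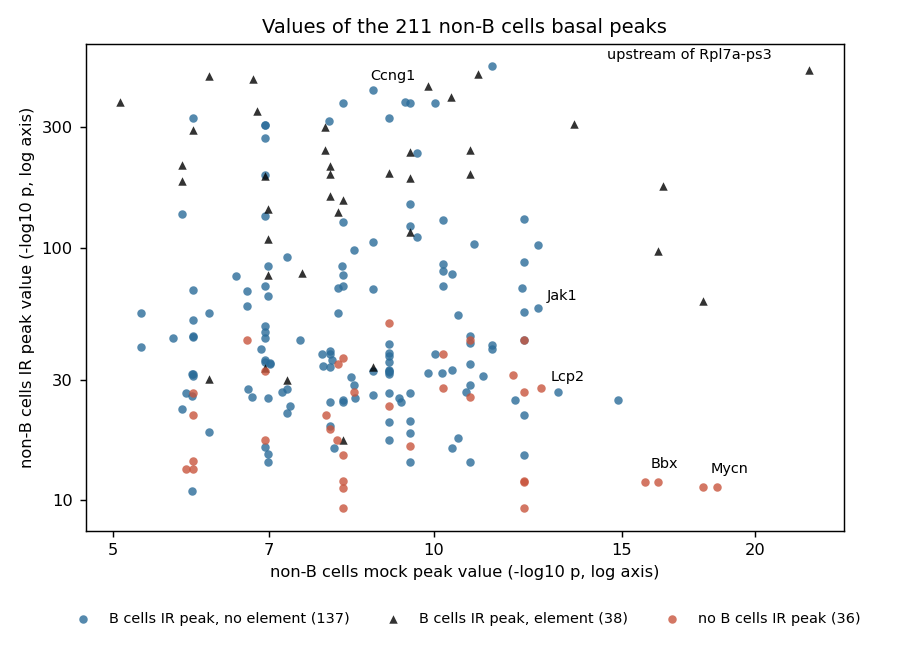
Non-B cells mock value against non-B cells IR value for each of the 211 members, both as −log10 p on log axes, with triangles for members that had a B cells IR peak and an unsplit p53 element, blue circles for those with a B cells IR peak alone and red circles for those without one. Triangles lie mostly above a non-B cells IR value of 100, and red circles all lie at 50.12 or below.

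Being missing from the B cells mock list did not always mean distance from B cells binding. The members lay in 196 non-B cells IR peaks, of which 183 held 1 member, 11 held 2 and 2 held 3 or more. In 51 members (24.2%, interval 18.9 to 30.4) the non-B cells IR peak over the member also held a B cells mock peak elsewhere along its length, and 34 members lay within 100 bp of one. For 26 members the same IR peak held a shared basal peak too. At the other end, 129 members lay over 10 kb and 90 over 100 kb from the nearest B cells mock peak, with a median gap of 28366 bp. The 55 members within 1 kb of a B cells mock peak faced B cells values from 5.08 to 81.42, with a median of 10.19.

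The start of Ccng1, a cyclin gene and an established p53 target, shows the first kind. Its member had a mock value of 9.88 and lay 34 bp from a B cells mock peak of 27.86 and beside a shared non-B cells mock peak of 27.85, all under 1 non-B cells IR peak of 437.41. The start of Nme1, a nucleoside diphosphate kinase gene, had a member of 9.49 that ended 8 bp from a B cells mock peak of 6.64. The member upstream of Cntn5 also lay 8 bp from a B cells mock peak, and that at the start of Traf3ip3 lay 10 bp away. The member 529 bp upstream of a start of Dnm3, with the highest non-B cells IR value of all (523.34), lay 56 bp from a B cells mock peak of 81.42. It is named here after its values were seen.

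The line drawn by the rule was fine. Just outside it, a non-B cells mock peak 314 bp from the start of Btg2, a p53 target of growth arrest, with a value of 9.32 overlapped a B cells mock peak by 2 bp, and those near Dnajb12 and Fam65b overlapped by 3 bp with values of 6.95 and 9.08. On the IR side, the shortest overlaps of members were 16 bp at Rapgef4 and Mcoln2 and 19 bp at Myc. The nearest peaks excluded lay 45 bp from a non-B cells IR peak near Rgs10, 88 bp near Pgk1 and 176 bp near Rps6ka1, with mock values of 12.16, 22.47 and 13.48.

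Among members with no B cells mock peak under the same IR peak, the 5 with the highest non-B cells IR value were also near the top of the B cells IR list. They were the member upstream of Rpl7a-ps3 (506.67), one upstream of 1700012B07Rik (484.85), and members in introns of Sgpp1 (464.05), a sphingosine-1-phosphate phosphatase gene, Eif4e3 (346.33) and Dusp22 (327.04), a phosphatase gene. Their B cells IR values were 274.92, 252.82, 260.92, 190.49 and 162.36 in the same order. The Dusp22 IR peak held a second member, of mock value 5.95 beside 9.08. All but the Dusp22 members held an unsplit element. Both Dusp22 windows held a pair of decamers split by 1 base, with 0 mismatches.

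**Figure D2:**
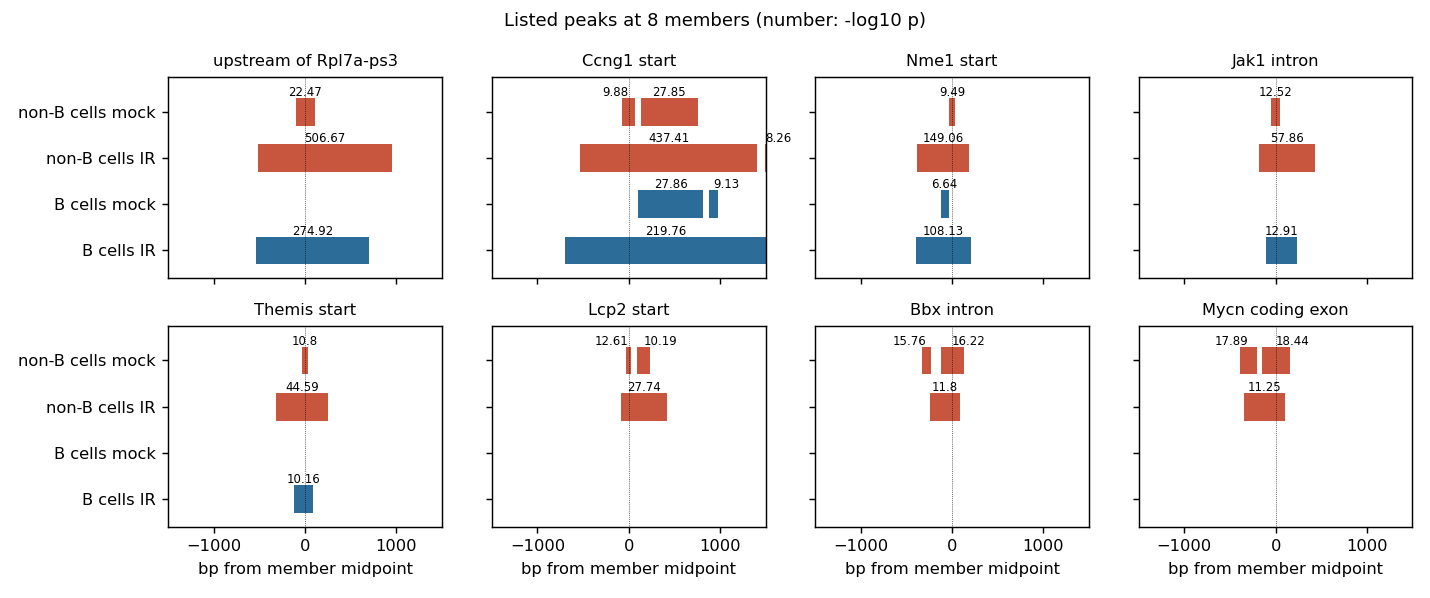
Peaks of the 4 wild-type lists around 8 members, drawn as boxes from their start to their end in bp from the midpoint of the member, with the −log10 p value above each box. Ccng1 and Nme1 have a B cells mock peak beside the member, the site upstream of Rpl7a-ps3, Jak1 and Themis have a B cells IR peak alone, and Lcp2, Bbx and Mycn have neither.

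B cells IR was not used to choose the members. In that list 175 of 211 members had a peak (82.9%, interval 77.3 to 87.4), close to the 83.7% of all non-B cells mock peaks and the 85.3% of all non-B cells IR peaks. The shared basal peaks had one in 415 of 436 (95.2%, 92.7 to 96.8). In the mirror comparison, 810 of 861 B cells only basal peaks had a non-B cells IR peak (94.1%, 92.3 to 95.5). The share of the members lay below that of both sets, with intervals that do not overlap, and near that of the lists at large. The shared basal peaks were chosen for having a B cells mock peak and the members for lacking one. A lower share than in the shared basal peaks is therefore partly built in by the rule. Without the members beside a B cells mock peak it was 125 of 160 (78.1%, 71.1 to 83.8).

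Rank after irradiation went with this share. By quintile of the non-B cells IR list, from lowest to highest, the IR peaks holding a member overlapped a B cells IR peak in 2 of 4, 7 of 14, 11 of 16, 51 of 60 and 100 of 102. For all non-B cells IR peaks the shares were 63.2, 78.5, 88.7, 96.7 and 99.7%. In the fourth quintile the sites of members reached 85.0% (73.9 to 91.9), below the 96.7% of the list, and in the second they reached 50% (26.8 to 73.2) against 78.5%. Counted peak by peak, the shared basal peaks had a B cells IR peak in 17 of 23 in the second quintile (73.9%, 53.5 to 87.5). In the fourth it was 30 of 33 (90.9%, 76.4 to 96.9). Counted in the same way, the members had one in 8 of 19 (42.1%, 23.1 to 63.7) and 51 of 63 (81.0%, 69.6 to 88.8). At equal rank these intervals of members and shared basal peaks overlap. In the fourth quintile of the B cells IR list, the B cells only sites had a non-B cells IR peak in 135 of 138 (97.8%) against 95.6% of the list. In its second quintile they had one in 16 of 31 (51.6%, 34.8 to 68.0) against 57.6% of the list, close to the 50% of the sites of members. How far the unknown depths of the libraries set these shares was not tested.

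**Figure D3:**
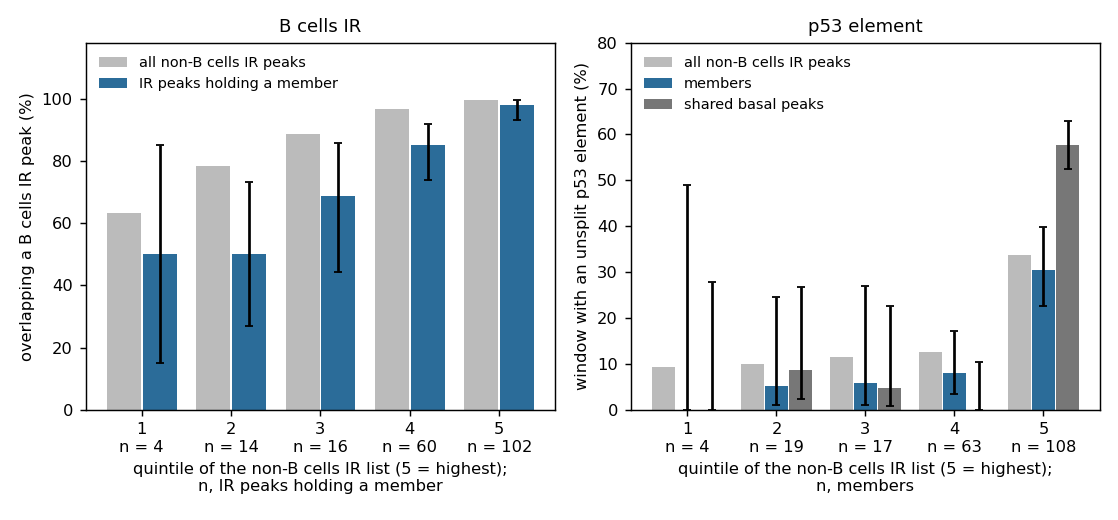
Left, the share of non-B cells IR peaks that overlapped a B cells IR peak, by quintile of value, for the whole list and for peaks holding a member. Right, the share of windows with an unsplit p53 element for the whole list, members and shared basal peaks, with error bars as 95% Wilson intervals. In quintiles 2 to 4 the sites of members lie at 50, 68.8 and 85.0% on the left against 78.5, 88.7 and 96.7% for the list, and in quintile 5 the shared basal peaks lie at 57.8% on the right against 30.6% for members.

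The 36 members without a B cells IR peak lay at 28 sites, and for 33 of them the whole non-B cells IR peak missed the B cells IR list. Their non-B cells IR percentile had a median of 52.7 and reached 87.2 at most. Of the 36, 21 lay in introns, 9 between genes, 3 in UTRs and 3 in coding exons. For all of them the median count of their 31-base words in the reference was 1. Apart from the Mycn and Bbx pairs, the highest mock value was at the start of Lcp2, the gene of an adaptor protein (SLP-76) of T cell receptor signalling. There, members of 12.61 and 10.19 lay on either side of the start under a non-B cells IR peak of 27.74, and no B cells list held a peak.

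The other sites of this kind lay at or near genes of varied function, among them Atp6v1g3, Galnt7, Adipoq and Wasf2, and those given next were picked after their values were seen and do not stand for the whole set. Between genes, 232530 to 233045 bp downstream of the start of Ets1, the nearest coding gene, 3 members of 10.8, 12.16 and 6.68 lay under 1 non-B cells IR peak of 43.23. Members in introns of Prkch, a protein kinase C gene, and Srpk1, a splicing kinase gene, had mock values of 8.22 and 9.08 and non-B cells IR values of 36.59 and 50.12. A member in an intron of Mbnl1, a splicing regulator gene, had 10.19 and 37.89. Members in introns of Runx1, a transcription factor gene of blood cells, and Rora, a nuclear receptor gene, had mock values of 7.93 and 9.49 and non-B cells IR values of 21.69 and 16.41. At Tnfsf8, the gene of CD30 ligand, members of 8.41 and 12.16 lay under a peak of 26.75. In the coding exon of Myc, a member of 12.16 had a non-B cells IR value of 9.27 and lay 56 bp from a B cells mock peak.

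For the 175 members present in both IR lists, ranks were compared as percentiles within each list. The median difference, non-B cells minus B cells, was 0.957 points (interval 0.292 to 1.79), with a range from −47.1 to 70.2. The percentile was over 20 points higher in non-B cells for 26 members (14.9%, 10.3 to 20.9) and over 20 points lower for 3 (1.71%). The shared basal peaks were nearly even, with 18 and 15 of 415. For the B cells only basal peaks, 65 of 810 ranked over 20 points higher in B cells IR (8.02%, 6.35 to 10.1) and 22 ranked over 20 points lower. With the members that had no B cells IR peak added, 62 of 211 members (29.4%) were missing from B cells IR or over 20 points lower there. The same count from the B cells side was 116 of 861 (13.5%), and for the shared basal peaks it was 39 of 436 (8.94%). These 3 sets were not matched for rank. Their median percentile in the IR list of their own compartment was 80.2 for members, 89.5 for B cells only and 98.3 for shared basal peaks. How far rank sets these counts was not tested.

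The 3 widest gaps in rank, named after their values were seen, were at Themis, Ikzf1 and Jak1, genes with roles in T cells or all lymphocytes. The member at the start of Themis, a gene required for T cell development in the thymus, had a mock value of 10.8, a non-B cells IR value of 44.59 (percentile 84.5) and a B cells IR value of 10.16 (percentile 14.3). In an intron of Ikzf1, which encodes the lymphoid transcription factor Ikaros, a member of 11.34 had 41.24 (percentile 82.4) against 10.87 (16.7). In an intron of Jak1, a kinase of cytokine receptors, a member of 12.52 had 57.86 (90.0) against 12.91 (26.7). A second member in Ikzf1, 6.68 in mock, had percentiles of 92.0 and 90.7, so the gap belonged to 1 site and not to the gene. The 3 members that ranked over 20 points higher in B cells IR lay 67 bp from the start of 4930427A07Rik, at the start of Apbb1ip, an adaptor gene, and in an intron of Celf2, an RNA-binding protein gene. Their percentiles were 16.1, 67.6 and 60 in non-B cells IR and 63.2, 94.0 and 83.7 in B cells IR.

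**Figure D4:**
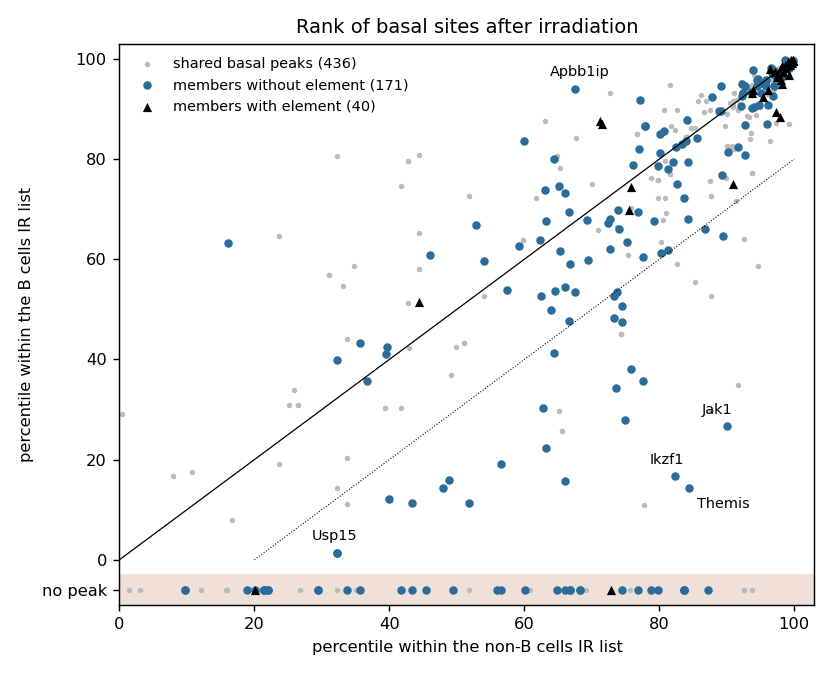
Percentile of each site in the non-B cells IR list against its percentile in the B cells IR list, for members (blue circles without and black triangles with an unsplit element) and shared basal peaks (grey), with sites that had no B cells IR peak in the strip at the bottom. The solid line marks equal percentiles and the dotted line a gap of 20 points, below which, above the strip, lie 26 members, none of them with an element.

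An unsplit p53 element, a pair of decamers without spacer and with at most 3 mismatches, lay within 300 bp of the midpoint of 40 members (19.0%, 14.2 to 24.8). All non-B cells mock peaks had one in 34.6%, the shared basal peaks in 46.9% (42.3 to 51.6) and the B cells only basal peaks in 14.6% (12.4 to 17.2). Windows moved by 10 kb from the members had one in 3.32% (1.62 to 6.69). The element matched at every position in 8 members, with 1 mismatch in 16, 2 in 4 and 3 in 12. An element split by 1 to 15 bases, with at most 1 mismatch, was found in 8 members (3.79%) against 2.37% of moved windows, with intervals that overlap. CATG made up 33 of the 80 cores (41.2%, 31.1 to 52.2), against 54.9% (50.1 to 59.7) in the shared basal peaks.

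Members with an element were the strong ones after irradiation. Their non-B cells IR percentile had a median of 98.1, against 76.8 for the 171 members without, 33 of 40 lay in the highest quintile, and 38 of 40 had a B cells IR peak. None of these 38 differed by over 20 points between the IR lists, although 28 of them ranked lower in B cells IR by less. Near the top of both lists a percentile moves little for a large change in value, as at Tifab (308.38 against 119.72, percentiles 99.2 and 96.9), so the cut of 20 points says little for members with an element. All 26 members over 20 points lower in B cells IR lacked one, as did 34 of the 36 without a B cells IR peak. Within the highest quintile, 33 of 108 members had an element (30.6%, 22.7 to 39.8), close to the 33.7% of all peaks there and below the 57.8% (52.5 to 62.8) of shared basal peaks there. The element was often beside the member and not under it. It lay wholly inside in 8 of 40, and its centre was a median of 120 bp from the midpoint.

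Close elements recurred as a few families. A single 20-base element, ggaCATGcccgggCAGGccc on one strand and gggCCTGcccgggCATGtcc on the other, was carried by 6 of the 24 members whose element had 0 or 1 mismatches. It had 285 exact copies in the mm9 chromosomes, and a non-B cells IR peak lay over 257 of them (90.2%, 86.2 to 93.1) and a B cells IR peak over 251 (88.1%). Without irradiation 18 copies lay under a non-B cells mock peak (6.32%) and 20 under a B cells mock peak (7.02%), and none lay under a peak of the Trp53-/- list. A second, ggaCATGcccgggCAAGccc or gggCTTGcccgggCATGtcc, differed from the first by G16A, counted from the 5′ end, and matched the consensus throughout. It was carried by 5 members and had 127 copies, of which 90 lay under a non-B cells IR peak (70.9%, 62.4 to 78.1), 87 under B cells IR, 10 under non-B cells mock and 11 under B cells mock.

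These repeated elements were not particular to the members. Together both made up 11 of 24 close elements in members (45.8%, 27.9 to 64.9), 74 of 140 in shared basal peaks (52.9%, 44.6 to 60.9) and 34 of 78 in B cells only basal peaks (43.6%, 33.1 to 54.6). In the 5 members with the second element, the 40 bases on either side were alike too, with a median pairwise identity of 98.8% and a range from 68.8 to 100%. For the first the median was 60%. Copy number in the reference was taken as the median count of the 31-base words of a member. It was 1 in 205 of 211 members, which does not make every word of a member unique. The 2 members above 10 both held a close element, near Rragd (21) and Gpd1l (48).

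The windows of all members, with or without an element, were searched for other short words, chosen after the values above were seen. The 8 words were sought on either strand within 300 bp of the midpoint. The core bound by RUNX factors was written as TGTGGT. The ETS factors were given both AGGAAG, a frequent purine core, and the promoter form CCGGAA. The word for GATA factors was AGATAA, the E box was taken as CAGCTG, and the box of NF-Y as CCAAT. The word for TCF7 and its relatives was CAAAGG, and the last was the G run AGGGGG. The RUNX word stood out in the 62 members that were missing from B cells IR or over 20 points lower there. It lay in 44 of the 62 windows (71.0%, 58.7 to 80.8), against 68 of the other 149 members (45.6%, 37.8 to 53.6), 38.4% (33.9 to 43.0) of shared basal peaks, 41.5% of all non-B cells mock windows and 24 of 62 (38.7%, 27.6 to 51.2) when the same windows were moved by 10 kb. With 1 member per site it was 37 of 52 (71.2%, 57.7 to 81.7) against 65 of 144 (45.1%). These classes were not matched for distance to start sites. Beyond 1 kb of a coding start the word lay in 39 of 49 (79.6%, 66.4 to 88.5) against 54 of 106 other members (50.9%, 41.6 to 60.3). The corresponding 116 B cells only basal peaks, missing from or over 20 points lower in non-B cells IR, had it in 52 (44.8%, 36.1 to 53.9).

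The same word was also more frequent in the IR list at large where B cells had no peak. It lay in 1552 of 3138 non-B cells IR windows without a B cells IR peak (49.5%, 47.7 to 51.2), in 37.9% (37.2 to 38.7) of those with one, and in 39.0% (37.8 to 40.2) of B cells IR windows without a non-B cells IR peak. For the other 7 words, the intervals of the 62 members and of the other 149 overlapped. The word itself lay under the member in 12 of 62 (19.4%, 11.4 to 30.9), against 19 of 149 (12.8%, 8.32 to 19.1), so it was mostly in the flanks. A match of 6 bases is a description of sequence and not a bound site. Stretches of 40 bases around the word nearest to the midpoint are shown for 7 members of this group. These 7 were picked under no rule set beforehand and do not stand for all 44 that held the word. Among the rest were members nearest to Cxcr5, Adipoq and Olfr750. Each stretch is the plus strand of mm9, with the word or its reverse complement ACCACA in capitals.
Jak1 intron, chr4:100860095-100860134: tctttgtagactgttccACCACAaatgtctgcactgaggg
Ikzf1 intron, chr11:11626055-11626094: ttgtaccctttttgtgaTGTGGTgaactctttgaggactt
Bbx intron, chr16:50372807-50372846: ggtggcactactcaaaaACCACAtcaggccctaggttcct
Runx1 intron, chr16:92822171-92822210: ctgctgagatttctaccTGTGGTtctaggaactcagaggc
Rora intron, chr9:68882512-68882551: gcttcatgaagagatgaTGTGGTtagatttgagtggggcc
Prkch intron, chr12:74694483-74694522: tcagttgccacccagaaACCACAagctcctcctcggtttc
Mbnl1 intron, chr3:60300438-60300477: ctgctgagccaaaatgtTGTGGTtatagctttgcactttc

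**Figure D5:**
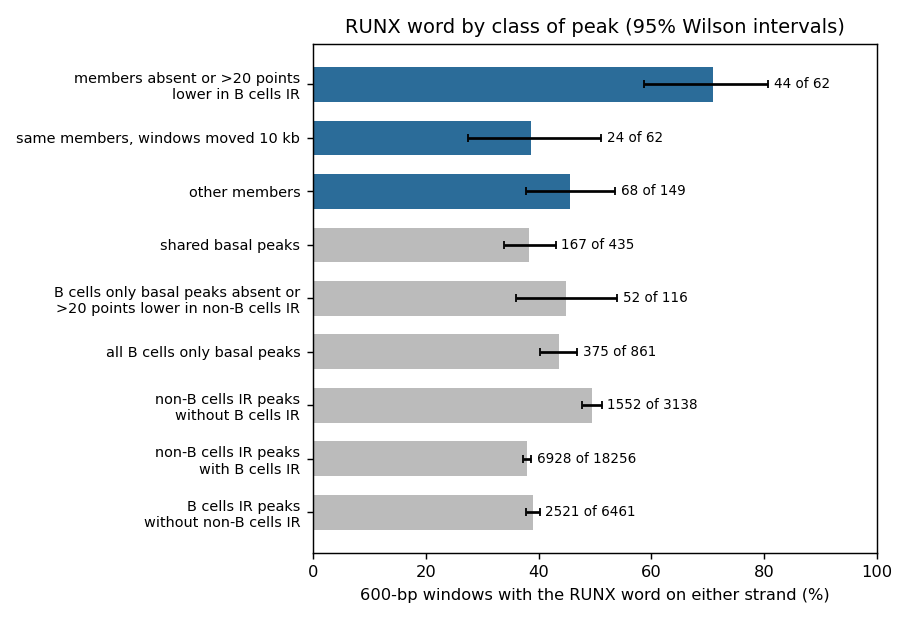
Share of 600-bp windows that hold the RUNX word on either strand, by class of peak, with 95% Wilson intervals and the counts beside each bar. The members that were missing from B cells IR or over 20 points lower there stand at 71.0%, and every other class drawn lies between 37.9 and 49.5%.

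Members lay in introns more often, and between genes less often, than the shared basal peaks. By their midpoints 109 of 211 lay in introns (51.7%, 44.9 to 58.3), against 41.3% of all non-B cells mock peaks, 37.4% (33.0 to 42.0) of shared and 44.1% (40.9 to 47.5) of B cells only basal peaks. Between genes lay 78 (37.0%, 30.7 to 43.7), against 48.3% of all non-B cells mock peaks, 231 of 436 shared basal peaks (48.3 to 57.6%) and 46.9% (43.6 to 50.3) of B cells only basal peaks. The intervals of members and shared basal peaks do not overlap for either, while those of members and B cells only basal peaks do. A further 14 members lay in UTRs, 6 in coding exons and 4 in exons of noncoding transcripts. Promoters, from 5 kb upstream to 2 kb downstream of a start site, held 79 of 211 (37.4%, 31.2 to 44.1), close to the 38.5% of all non-B cells mock peaks, 38.3% of shared and 37.9% of B cells only basal peaks. The 56 members within 1 kb of the start of a coding gene had a B cells IR peak in 91.1% and an element in 12.5%, with a median of 31 CpG in the 600-bp window. The 155 farther ones had a B cells IR peak in 80%, an element in 21.3% and a median of 7 CpG. Chromosome 11 held the most members, 29 of its 67 non-B cells mock peaks.

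Over all 33924 annotated genes, 90 had a member in the promoter (0.265%), 160 a shared basal peak and 370 a B cells only basal peak. Of 75 annotated genes on a list of p53 targets, 2 had a member in the promoter (2.67%, 0.734 to 9.21), Ccng1 and Mdm2, where shared basal peaks lay at 12 and non-B cells IR peaks at 61. At Mdm2, whose product degrades p53, the member lay 33 bp upstream of a start with a mock value of 5.95, a non-B cells IR value of 293.51 and a B cells IR value of 223.88, 7451 bp from the nearest B cells mock peak. None of 73 T, NK and myeloid identity genes, 36 B cell identity genes and 25 red cell and platelet genes had a member in its promoter. At the share over all genes, less than 1 gene of each of these lists would have had one, so the counts of 0 say nothing particular about lineage genes.

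The 56 members within 1 kb of a coding start ranged from percentile 9.75 (Myc) to 99.9 (Dnm3) of the non-B cells IR list, and 3 of them, picked after their values were seen, are given here. At the start of Mcl1, a survival gene of the Bcl2 family, a member of 6.99 had a non-B cells IR value of 64.51 (percentile 91.6) and a B cells IR value of 43.13 (percentile 82.4). At Polg, the gene of the mitochondrial DNA polymerase, a member of 8 had 37.89 (79.9) and 37.79 (78.6). At Per1, a circadian clock gene, a member of 6.95 had 33.44 (75.4) and 29.68 (69.9).

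No member overlapped any of the 83 peaks that the antibody gave in irradiated Trp53-/- spleen. The nearest lay 207968 bp away, whereas 11 of 436 shared basal peaks and 13 of all 712 non-B cells mock peaks overlapped one. The rule left out every peak that overlapped a B cells mock peak. Antibody background called at the same place in both mock lists could therefore not be a member, so the contrast with shared basal peaks is partly built in. That list came from irradiated total spleen, and a list from mock Trp53-/- cells was not analysed here.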

How the data were processed

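p53 ChIP-seq peak lists of 5 libraries were used, 1 per group, with groups from the sample labels. The input library was not used here. Per the labels and methods, the authors aligned reads to mm9 with BWA 0.6.2 and called peaks with MACS on chromatin pooled across animals. The deposited values carry no unit and were read, from the values alone, as −log10 of a peak p-value by the authors. A limit of 1e-08 is stated in their methods, yet 20.9% of non-B cells mock peaks lie below 8. Members were more often below it, 78 of 211 against 58 of the 436 shared basal peaks. The reason for values under the stated limit is not given in the sources used here. Depth is unknown, values are not normalised between lists, and a missing peak may be an uncalled one.

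Overlap meant at least 1 bp. A peak's percentile is its rank by value within its list, and the highest overlapping IR peak was used. Elements were sought within 300 bp of the midpoint, with C and G required at positions 4 and 7 of each 10-base site of the pair. Genes came from GENCODE vM1 (95495 transcripts) on NCBIM37, the matching assembly. The members and the gene lists were chosen with earlier results of these data known. Members named by rule were the 10 highest mock values, the 5 highest IR values without a B cells mock peak in the IR peak, the 5 highest without B cells IR, up to 12 with 0 or 1 mismatches (1 of these is not reported here), those in promoters of listed genes, and the 3 nearest a B cells mock peak. Alternatives covered overlap rules, minimum value, merging, mismatches, flank, promoter window and ranking. Steps were tested on simulated data. Software was Python 3.11.15 with pandas 2.3.3, numpy 2.4.6, pysam 0.24.0, matplotlib 3.10.9 and scipy 1.17.1, and samtools 1.23.1 indexed the genome.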

Additional observations from a re-analysis of the deposited data

How the results depend on the processing

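No paired analysis was possible because a single library stood for every group. Across 61 recalculations under 16 settings, 50 values stayed within the counting interval of the reported value or within 1.5 times a count, among them the number of members (156 to 235) and the share in B cells IR (78.1 to 86.2%). Removing members over a Trp53-/- peak, or keeping autosomes and X alone, left all 211 members in place. The values under those settings could not differ, and they are among the 50. Settings on 1 member per IR peak and on a median copy number of 1 were chosen after seeing the data. The share whose non-B cells IR peak held a B cells mock peak, 24.2% as reported, was 34.0% with overlaps of at least 50% of the shorter peak, 0.625% with overlap replaced by nearness of midpoints, 18.4% with a minimum value of 8, 16.4% with merged peaks, and 0 by construction without a B cells mock peak within 1 kb or in the same IR peak. The median percentile was 85.7 when peaks were ranked by width. The element share was 13.3% with at most 2 mismatches and 7.58% within 100 bp of the midpoint. The promoter share was 30.3% within 1 kb and 45.5% within 5 kb of a start. The cause of the changes with the overlap rules, merging and minimum value was not tested. With 1 library per group and unknown depth, absence from a list limits every statement on B cells.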
